A study of Mus musculus with 9 samples.

Results

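The forkhead transcription factors described here were Foxo1, Foxo3, Foxp1, Foxp2, Foxc1, Foxm1 and Foxn3, 7 of the 21887 mouse protein-coding genes to which peaks could be assigned. The 7 genes were listed by name, and a peak belonged to a gene when its centre lay inside the gene body or, outside any gene, when the gene had the nearest end within 100 kb. Lung endothelial cells of mice had been purified by FACS, and their accessible chromatin had been mapped by ATAC-seq, an assay whose transposase inserts adapters where DNA is exposed. Infants, young adults and mature adults were each represented by 3 libraries. The labels name no strain, genotype, treatment or age in days. Nor do they state that the libraries of an age are different animals, so each p-value below speaks only of library-to-library spread. Overlapping peaks (1 bp or more) of the 9 libraries were merged, and 292 of 126907 merged regions belonged to the 7 genes.

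Forkhead factors bind DNA through a winged helix domain and recognise a core resembling GTAAACA. FoxO factors are held in the cytoplasm when insulin or growth factor signalling activates the kinase AKT, and enter the nucleus when that signal is low. In endothelium Foxo1 is known to restrain growth and metabolism, and its loss in mice disturbs vessel formation. FoxP factors act mainly as repressors and are known in the lung for their role in airway epithelium, Foxc1 is needed for vascular development, Foxm1 drives the genes of mitosis, and Foxn3 is a repressor linked to cell cycle checkpoints.

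Each library was available as a list of intervals called open, without height or read number, so sequencing depth is unknown. Infant lists held 88856 to 94646 peaks, young adult lists 67550 to 68366 and mature adult lists 59793 to 64208. Among adults, young adult replicate 3 and mature adult replicate 1 were unlike the rest, with 4901 and 4536 regions that no other list held. Because the infant lists were longer, each value was tested with limma on 2 scales, the number or length as called and its share of the library's total. A gene is said below to have risen or fallen only where both passed an adjusted p of 0.05 with the same sign. Without that scaling the median gene had a log2 difference in peak number of -0.31 for mature adult against infant, and with it of 0.14. In sorted but bulk cells, fewer cells of a type and less signal per cell cannot be told apart.

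Of the 7 promoter windows that RefSeq (assembly GRCm38.p6) gives for 5 of the members, 3 of them for Foxp1 and none for Foxp2 or Foxm1, each from 250 bases before to 50 bases after a start, 5 lay wholly under a peak in all 9 libraries. These 5 are shown because they are the stretches that carried a peak at each age, 5′ to 3′ on the gene's strand. Capitals mark matches to CCAAT and to GGGCGG, the box bound by SP and KLF factors, on either strand. They are Foxo1 at chr3:52268087-52268386 (plus strand), Foxo3 at chr10:42276646-42276945 (minus), the upstream start of Foxp1 at chr6:99520944-99521243 (minus), a start further inside Foxp1 at chr6:99028249-99028548 (minus) and Foxc1 at chr13:31806396-31806695 (plus). The upstream start of Foxp1 is the most upstream one with a window. At position 99520993 it also lies inside the gene body, which reaches to 99522746.
Foxo1: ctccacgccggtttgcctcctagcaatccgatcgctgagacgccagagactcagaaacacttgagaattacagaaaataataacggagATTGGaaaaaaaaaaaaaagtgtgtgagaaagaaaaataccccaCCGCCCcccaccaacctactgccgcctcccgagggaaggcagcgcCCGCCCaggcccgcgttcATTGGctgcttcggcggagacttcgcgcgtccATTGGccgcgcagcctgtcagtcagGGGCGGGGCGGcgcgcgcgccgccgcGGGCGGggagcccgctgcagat
Foxo3: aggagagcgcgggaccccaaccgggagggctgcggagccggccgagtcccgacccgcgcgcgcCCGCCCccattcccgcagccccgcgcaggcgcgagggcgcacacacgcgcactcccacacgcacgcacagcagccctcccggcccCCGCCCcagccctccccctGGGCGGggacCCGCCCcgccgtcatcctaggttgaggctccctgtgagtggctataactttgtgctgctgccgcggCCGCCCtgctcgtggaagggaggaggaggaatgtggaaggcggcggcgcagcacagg
Foxp1 upstream start: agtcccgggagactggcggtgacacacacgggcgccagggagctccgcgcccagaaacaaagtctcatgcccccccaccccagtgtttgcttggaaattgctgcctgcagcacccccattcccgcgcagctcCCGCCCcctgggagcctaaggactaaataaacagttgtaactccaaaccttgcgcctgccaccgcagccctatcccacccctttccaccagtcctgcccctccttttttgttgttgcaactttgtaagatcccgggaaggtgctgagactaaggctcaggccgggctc
Foxp1 internal start: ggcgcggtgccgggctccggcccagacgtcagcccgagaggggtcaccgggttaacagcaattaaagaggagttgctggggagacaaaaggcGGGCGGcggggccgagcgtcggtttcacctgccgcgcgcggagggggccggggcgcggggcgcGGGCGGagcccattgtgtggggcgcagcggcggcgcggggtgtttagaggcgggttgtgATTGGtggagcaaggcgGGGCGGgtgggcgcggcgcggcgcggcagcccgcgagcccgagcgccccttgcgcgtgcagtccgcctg
Foxc1: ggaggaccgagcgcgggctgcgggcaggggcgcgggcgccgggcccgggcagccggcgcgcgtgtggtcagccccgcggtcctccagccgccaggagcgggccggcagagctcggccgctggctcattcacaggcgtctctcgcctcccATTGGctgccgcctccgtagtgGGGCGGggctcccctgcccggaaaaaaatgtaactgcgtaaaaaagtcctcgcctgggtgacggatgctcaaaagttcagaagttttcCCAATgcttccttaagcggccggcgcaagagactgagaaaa

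The FoxO promoters held the most GGGCGG matches of the 5 windows, 5 in Foxo1, a pair of which overlap by 1 base, and 5 in Foxo3. The internal start of Foxp1 held 3, its upstream start 1 and Foxc1 1. At least 1 such match occurs in 35.7% of the 32851 promoter windows of the table, and the share with several was not counted. G and C made up 60.3% to 75.3% of the bases of the 5 windows. CCAAT matches numbered 3 in Foxo1, 2 in Foxc1 and 1 at the internal start of Foxp1, against a share of 37.4% of windows with at least 1. GTAAACA itself, searched on both strands, was in none of the 7 windows and is in 3.65% of all windows. CCGGAAG (ETS factors), TTTGGCGC and TTTCCCGC (E2F) and TGACGTCA (CRE) were in none either, and are in 8.86%, 0.514%, 1.07% and 1.79% of windows. TTTGAA, the cell cycle homology element, was found once in each of the remaining 2 windows and is in 17.9% of all. Of these, a start inside Foxp1 at chr6:99266466-99266765 was covered over 158 to 220 of its 300 bases in infant libraries, 107 to 240 in young adult libraries and 0, 169 and 300 in mature adult libraries. The start inside Foxn3 at chr12:99450025-99450324 carried no peak in any of the 9 libraries.

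**Figure D1:**
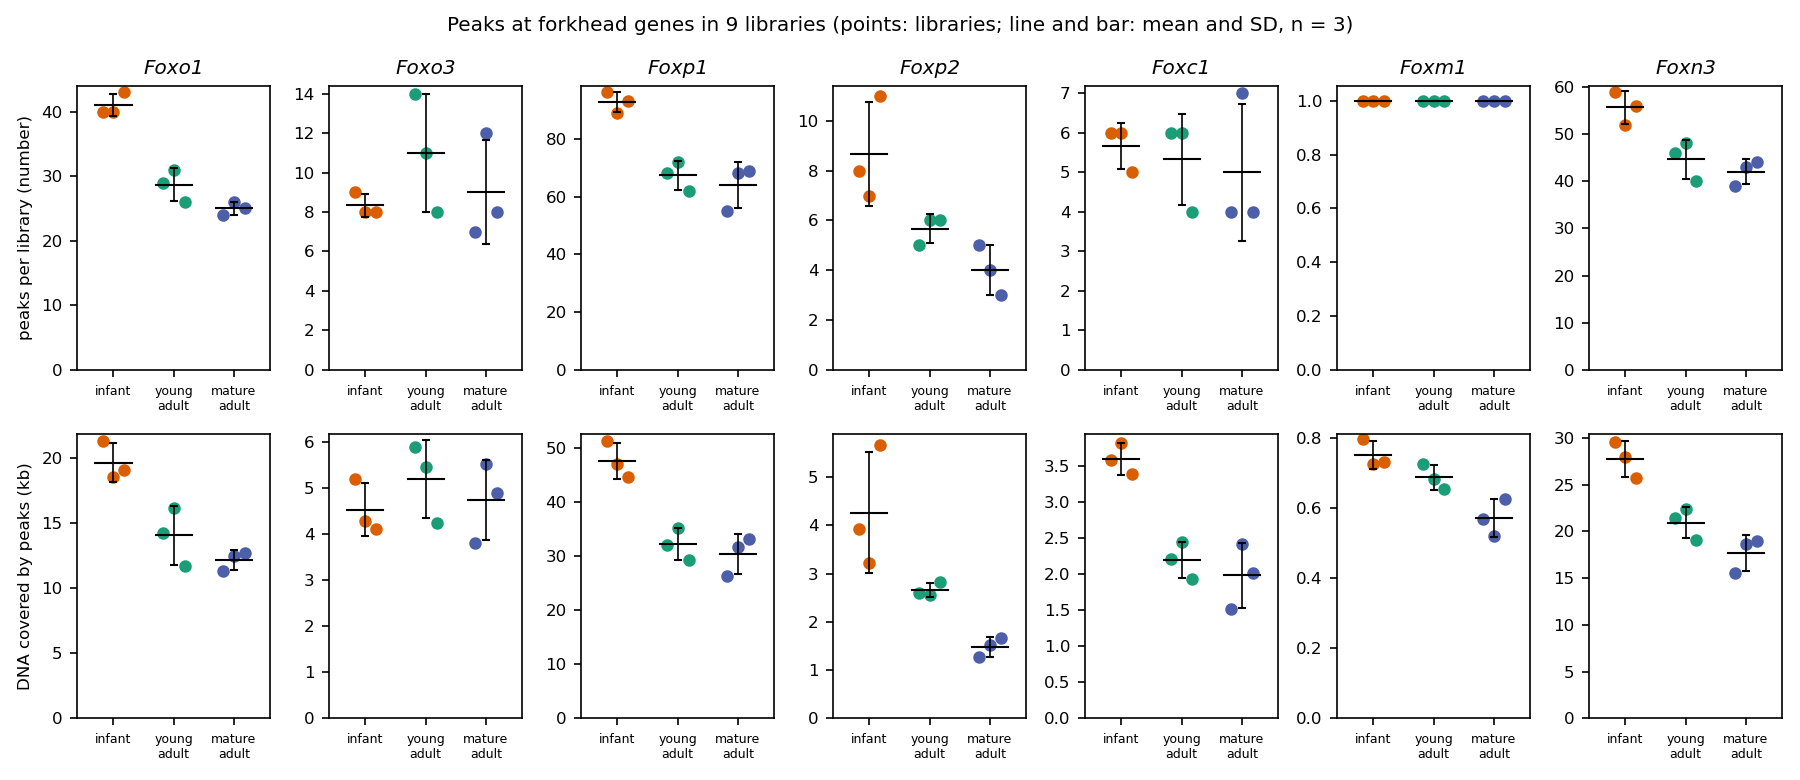
Peaks assigned to each of the 7 genes (upper row, number per library) and DNA covered by those peaks (lower row, kb per library), with 1 point per library and the mean and SD of 3 libraries per age. Foxo1, Foxp1 and Foxn3 had more peaks in every infant library than in any adult library, Foxm1 had 1 peak throughout, and Foxp2 covered least DNA in the mature adult libraries. Every infant list was also longer than every adult list, and the share of all genes that separate this way was not counted.

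By peak number, none of the 7 members rose or fell on both scales between any pair of ages. The same count was 0 at an unadjusted p under 0.05 on both scales. For mature adult against infant libraries, 1.43% of the 14507 genes tested rose and 13.9% fell on both scales. For young adult against infant libraries the shares were 1.1% and 9.24%, and for mature against young adult libraries 0.103% and 0.662%. On the numbers as called, 4 of the 7 members were lower in mature adult than in infant libraries (Foxo1, Foxp1, Foxp2 and Foxn3), as were 29.3% of all genes. For young adult libraries 3 were lower than in infants (Foxo1, Foxp1 and Foxn3), against 17.4% of all genes. On shares alone, Foxm1 was higher in mature adults and Foxm1 and Foxo3 in young adults than in infants, as were 30.4% and 26.1% of genes. By covered DNA, 1 member, Foxp2, fell on both scales in mature adult against infant libraries, where 19.1% of genes fell and 1.19% rose. The corresponding backgrounds were 12.4% and 0.903% for young adult against infant libraries and 0.524% and 0.00689% for mature against young adult libraries, with 0 members called by limma in either. At an unadjusted p under 0.05 on both scales those counts were 0 and 2 (Foxn3 and Foxp2, both lower). On lengths as called, 6 members covered less DNA in mature adults and 5 in young adults than in infants, where 56.3% and 39.3% of all genes did.

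Foxo1, the FoxO factor best known in endothelium, spans chr3:52268337-52350109. It had 40, 40 and 43 peaks in infant libraries, 29, 31 and 26 in young adult libraries and 24, 26 and 25 in mature adult libraries. The infant libraries were above all adult ones, and no mature adult library exceeded the lowest young adult one. The infant lists were themselves longer than all adult lists. How many of all genes separate infants from adults in this way was not counted, here or for Foxp1 and Foxn3 below. Mature adult libraries averaged 25 ± 1 peaks and infant libraries 41 ± 1.73 (SD, n = 3 each). The log2 difference was -0.70 as called (SE 0.0684, limma adjusted p = 0.00066) and -0.16 as a share of the library (SE 0.0697, limma adjusted p = 0.098). The share thus did not pass with all libraries. Without young adult replicate 3 the share also passed (limma adjusted p = 0.0487).

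The Foxo1 peaks that infants alone had lay mainly past the end of the gene. Of its 45 merged regions, 19 were open in all 9 libraries, and 8 were open in all 3 infant and no adult library, 7 of which lay past the gene's end. By mean bases covered in infants, the widest of those, chr3:52390836-52391589, 41.1 kb past the end, was covered over 677, 451 and 535 bp in infant libraries. The next, chr3:52376924-52377580, was covered over 656, 602 and 370 bp in infant libraries and, like the first, over 0 bp in the adult ones. No region was open in all adult and no infant library. A single region, chr3:52243695-52243943, 24.5 kb before the start, was open in all infant and young adult libraries and in no mature adult one. The region at the start itself, chr3:52267586-52269519, was among the widest of each library and covered 1824, 1585 and 1833 bp in infants, 1585, 1846 and 1335 bp in young adults and 1573, 1402 and 1395 bp in mature adults. Mature adult widths were all below the infant ones as called, and the ages differed by a log2 of -0.02 after scaling (SE 0.111, limma adjusted p = 0.907). A shared region 69.9 kb before the start, chr3:52197836-52198945, covered 796, 826 and 937 bp in mature adults and 637, 562 and 855 bp in infants. Its scaled log2 difference was 0.58 (SE 0.153, limma adjusted p = 0.0369). The length as called did not pass (log2 0.34, limma adjusted p = 0.155).

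**Figure D2:**
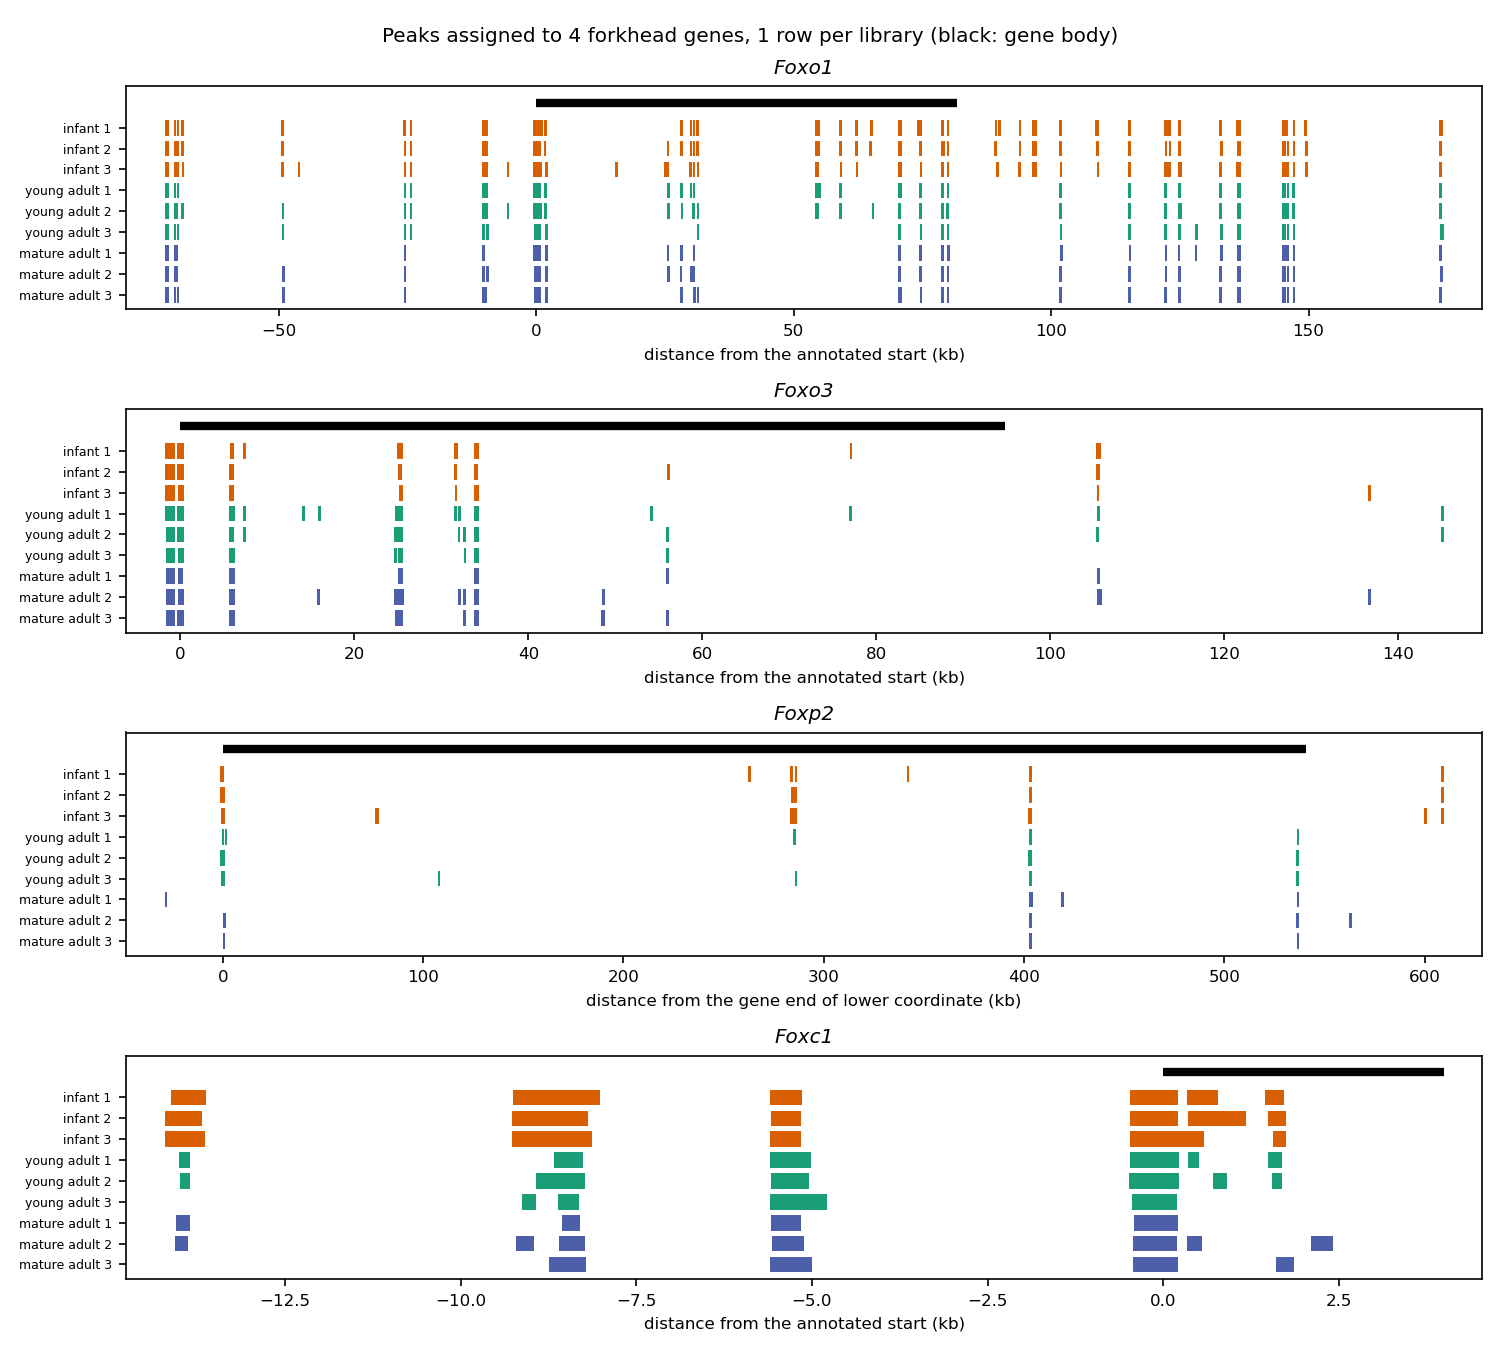
Peaks of each library along Foxo1, Foxo3, Foxp2 and Foxc1, as distance in kb from the annotated start (for Foxp2 from the gene end of lower coordinate), with 1 row per library, infant rows at the top, and narrow peaks drawn at a minimum visible width. Infant rows hold extra peaks past the end of Foxo1, Foxo3 rows overlap between ages, with 5 to 11 peaks inside the gene in adults and 5 to 7 in infants, the cluster at the lower end of Foxp2 thins out in mature adults, and the region 8.6 kb before Foxc1 is narrower in adults.

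Foxo3, the FoxO factor tied to oxidative stress resistance and longevity, had peak numbers that overlapped between the ages. It lies at chr10:42181845-42276695 and had 9, 8 and 8 peaks in infant libraries, 14, 11 and 8 in young adult libraries and 7, 12 and 8 in mature adult libraries. The lowest adult values came from young adult replicate 3 and mature adult replicates 1 and 3. As a share of all peaks, adult libraries were above every infant one, with 1.18 to 2.06 per 10000 peaks in young adults and 1.17 to 1.87 in mature adults against 0.888 to 0.951 in infants. The share of covered DNA was higher in mature adult than in infant libraries (log2 0.66, SE 0.107, limma adjusted p = 0.00149), while the length as called was not (log2 0.05, SE 0.169, limma adjusted p = 0.799). Young adult libraries differed from infant ones in the same manner, by a log2 of 0.67 for the share (SE 0.107, limma adjusted p = 0.00283) and of 0.19 for the length as called (SE 0.169, limma adjusted p = 0.389). A higher share of covered DNA was called for 34.6% of all genes in mature adult and 26.6% in young adult libraries. Foxo3 therefore counts as neither risen nor fallen under the rule on both scales.

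Among the 17 merged regions of Foxo3, 7 were present in more adult than infant libraries, per library, and 4 in fewer, whereas 19.5% of all regions were commoner in adults and 47.0% in infants. None of the 17 was open in all libraries of infants or of adults only. The start region, chr10:42276223-42277116, covered 870, 881 and 711 bp in infants, 766, 817 and 654 bp in young adults and 656, 705 and 758 bp in mature adults. Inside the gene, 25.1 kb from the start, chr10:42250990-42252145 covered 720, 471 and 477 bp in infants, 888, 1032 and 880 bp in young adults and 560, 1155 and 916 bp in mature adults. All young adult libraries were above all infant ones there, and mature adult replicate 1 was not. A region 5.94 kb from the start, chr10:42270408-42271110, covered 648, 684 and 679 bp in mature adults and 534, 602 and 535 bp in infants. Its scaled log2 difference was 0.51 (limma adjusted p = 0.027), but the length as called did not pass.

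Foxp1, a repressor with roles in lung epithelium and in immune and cardiac tissue, was among the genes with most peaks. It spans 597 kb at chr6:98925342-99522746 and ranked between 3 and 5 of all genes by peak number in every library. Infant libraries held 96, 89 and 93 peaks, young adult libraries 68, 72 and 62, and mature adult libraries 55, 68 and 69. Every infant library was above every adult one. Per 10000 peaks of the library, however, mature adults had 9.2 to 10.9 and infants 9.88 to 10.5, ranges that overlap. Mature adult against infant libraries differed by a log2 of -0.54 as called (SE 0.099, limma adjusted p = 0.00862) and of 0.01 as a share (SE 0.0742, limma adjusted p = 0.944). Its number was thus lower in adults, while a difference in its share was not shown.

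Of the 136 merged Foxp1 regions, 124 lay inside the gene, 38 were open in all 9 libraries and 11 in all infant and no adult library. By the same measure the widest infant region was chr6:99200535-99201540, 322 kb into the gene, with 702, 594 and 692 bp in infant libraries and 0 bp in adult ones. The next, chr6:99343896-99344652, covered 269, 409 and 756 bp in infants. At the start, chr6:99522502-99523745 covered 1220, 1162 and 1193 bp in infants, 1167, 1141 and 1119 bp in young adults and 1131, 1128 and 1120 bp in mature adults. All mature adult widths there were just below the infant ones. The window of the upstream start shown above sat inside the gene in chr6:99520851-99522367. That region covered 1483, 1282 and 1436 bp in mature adults and 1500, 1469 and 1281 bp in infants, overlapping ranges.

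Inside Foxp1, 3 regions open at every age differed in width between mature adult and infant libraries on both scales. Width of a region here is its bases under peaks, whether 1 peak or more. Narrower in adults was chr6:99359391-99361016, 163 kb from the start, with 1478, 1158 and 1340 bp in infants, 609, 582 and 571 bp in young adults and 520, 441 and 735 bp in mature adults. No adult library reached the lowest infant one (log2 -1.02, SE 0.169, limma adjusted p = 0.00905). The region of the internal start shown above, chr6:99026921-99029122, also fell, with 962, 1418 and 1191 bp in mature adults against 1906, 2118 and 1984 bp in infants (log2 -0.53, SE 0.128, limma adjusted p = 0.029). Its call was lost without any 1 infant library and without mature adult replicate 1 or 3 (limma adjusted p up to 0.0911). The peak over that start alone was 1400, 2118 and 921 bp wide in infants and 804, 1036 and 862 bp in mature adults, ranges that overlap. Wider in adults was chr6:98992808-98993583, 530 kb from the start, with 589, 579 and 574 bp in mature adults and 416, 280 and 249 bp in infants (log2 1.16, SE 0.199, limma adjusted p = 0.00998). That call was lost without infant replicate 2 or 3 and without any 1 mature adult library (limma adjusted p up to 0.0883 for the length as called). Young adults, with 583, 732 and 454 bp, were also above the infants at this site.

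Foxp2, the relative of Foxp1 known for speech and for distal airway epithelium, was the only member whose covered DNA fell on both scales. Its gene is 541 kb long, chr6:14901349-15441977, but had few peaks: 8, 7 and 11 in infants, 5, 6 and 6 in young adults and 5, 4 and 3 in mature adults. They covered 3915, 3216 and 5664 bp in infants, 2600, 2560 and 2819 bp in young adults and 1265, 1515 and 1663 bp in mature adults. On these lengths as called the 3 ages did not overlap. Per Mb of the library's covered DNA, infants had 65.1 to 119.7 bp and young adults 69.2 to 85.8 bp, which overlap. Mature adults, at 42.7 to 49.7 bp per Mb, were below both. Mature adult against infant libraries differed by a log2 of -0.82 as a share (SE 0.198, limma adjusted p = 0.00867) and of -1.41 as called (SE 0.188, limma adjusted p = 0.00064). Between mature and young adult libraries the log2 difference in share was -0.68 (SE 0.198, limma adjusted p = 0.183). Peak number, at a log2 of -0.52 as a share (SE 0.227, limma adjusted p = 0.101), did not pass.

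Much of the change lay at the Foxp2 end of lower coordinate, whose strand is not given in the sources used here. At that end chr6:14900005-14902568, covered 1710, 1804 and 2046 bp in infants, 1465, 1879 and 1282 bp in young adults and 0, 271 and 647 bp in mature adults. All 3 mature adult libraries were below every other library. Over the rest of the gene the covered length was 2205, 1412 and 3618 bp in infants, 1135, 681 and 1537 bp in young adults and 1265, 1244 and 1016 bp in mature adults. Mature adults were below all infants there, but young adults overlapped both. Of the 18 merged regions, 10 occurred in a single library. Open in infants alone were chr6:15184580-15185246 (578, 197 and 666 bp) and chr6:15509429-15509742 (281, 303 and 214 bp). Open in all adults and no infant was chr6:15437146-15437770, 536 kb from the lower end, with 368, 166 and 622 bp in young adults and 340, 496 and 323 bp in mature adults. A single Foxp2 region, chr6:15303938-15304807, was open in all 9 libraries.

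Markers of epithelium, fibroblasts and mural cells also had fewer peaks in mature adults. The 8 epithelial markers had 18 to 20 peaks in mature adult libraries and 35 to 45 in infant libraries, with Sftpc, the surfactant gene of alveolar type 2 cells, at 0 in all 9. Sums for the 6 fibroblast markers were 20 to 22 in mature adults and 56 to 58 in infants, and for the 5 mural markers 11 to 14 and 31 to 33. Per 10000 peaks of the library these sums were also lower, at 2.96 to 3.17 in mature adults and 3.89 to 4.75 in infants for epithelium, 3.34 to 3.49 and 6.13 to 6.41 for fibroblasts and 1.74 to 2.34 and 3.44 to 3.71 for mural cells. Young adults had 2.66 to 3.98 per 10000 for epithelium, overlapping infants, 3.39 to 3.7 for fibroblasts and 1.48 to 2.05 for mural cells. For mature adult against infant libraries, 1 of 5 tested epithelial, 2 of 5 fibroblast and 2 of 5 mural markers fell on both scales. These are counts by peak number, where 13.9% of all genes fell. Between young adult and infant libraries the counts were 0, 3 and 3, where 9.24% of genes fell. The 10 endothelial markers, none of which was called, all had peaks in every library, with sums of 162 to 193 in mature adults and 203 to 216 in infants. As a share the order was the opposite, with 27.1 to 30.6 per 10000 in mature adults and 22.8 to 23.9 in infants. Immune markers were few, with 7 to 8 peaks in infants, 4 to 8 in young adults and 4 to 5 in mature adults. Their shares overlapped, at 0.777 to 0.845 per 10000 in infants, 0.592 to 1.18 in young adults and 0.623 to 0.836 in mature adults, and Cd68 and Itgam were at 0 throughout. The part of these other cell types in the Foxp2 values was not tested.

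Foxc1, needed for the development of vessels and of vascular mural cells, is a short gene at chr13:31806646-31810635. Its peak number overlapped between ages, with 6, 6 and 5 in infants, 6, 6 and 4 in young adults and 4, 7 and 4 in mature adults. What differed was their width, on average 380, 346 and 504 bp in mature adults against 598, 638 and 678 bp in infants. Neither age overlapped the other (log2 -0.57 after scaling, SE 0.179, limma adjusted p = 0.088; log2 -0.66 as called, SE 0.16, limma adjusted p = 0.0424), so the call held on 1 scale. For this comparison mean width rose on both scales in 2.49% and fell in 4.59% of 13268 genes, and limma called no member. At an unadjusted p under 0.05 on both scales 2 members were lower, Foxc1 and Foxm1, the same 2 that passed on widths as called, as did 6.34% of genes. No member was called in mean width between young adults and infants either, where 1.32% rose and 1.56% fell, or between mature and young adults, where 0.0754% rose and 0.0603% fell. The unadjusted counts there were 1 (Foxc1) and 1 (Foxm1), both lower. Covered DNA was 1519 to 2419 bp in mature adults and 3392 to 3827 bp in infants, and passed only as called (log2 -0.83, SE 0.155, limma adjusted p = 0.0028).

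Both Foxc1 regions called narrower on both scales in mature adults than in infants lay at or before the start. The promoter shown above sat in chr13:31806163-31807823, which covered 1123, 1516 and 1054 bp in infants, 858, 901 and 640 bp in young adults and 630, 844 and 644 bp in mature adults. These values add up all peaks in the region. The peak over the promoter itself was 689, 689 and 1054 bp wide in infants and 698, 708 and 640 bp in young adults. In mature adults it was 630, 637 and 644 bp wide, so most of the difference lay outside that peak in infant replicates 1 and 2. For the whole region the scaled log2 difference between mature adults and infants was -0.56 (SE 0.162, limma adjusted p = 0.0472). It passed in 2 of the 9 fits that each left out 1 library, those without young adult replicate 3 or mature adult replicate 2 (limma adjusted p up to 0.124 in the others). Further upstream, chr13:31797378-31798625, 8.6 kb before the start, covered 1240, 1081 and 1132 bp in infants, 415, 702 and 488 bp in young adults and 261, 632 and 525 bp in mature adults. Every adult value was below every infant one (log2 -1.14 for mature adults against infants, SE 0.283, limma adjusted p = 0.031). That call was lost without any 1 infant library and without mature adult replicate 1 or 3 (limma adjusted p up to 0.095). A region between them, chr13:31801051-31801864, covered 427, 445 and 600 bp in mature adults and 450, 437 and 441 bp in infants, values that overlap. Another, chr13:31792435-31793024, 13.9 kb before the start, was not tested for width since some adult libraries held no peak there. It covered 506, 528 and 572 bp in infants, 152, 150 and 0 bp in young adults and 201, 185 and 0 bp in mature adults.

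The forkhead genes next to Foxc1 lost most of their peaks. Foxf2, 175 kb away and the next protein-coding gene, had 8, 9 and 9 peaks in infants, 3, 3 and 1 in young adults and 0, 2 and 0 in mature adults. Foxq1, beyond it and 246 kb from Foxc1, had 7, 6 and 7 peaks in infants, 1, 2 and 0 in young adults and none in mature adults. Both fell on both scales for mature adult against infant libraries (limma adjusted p of the share = 0.00903 for Foxf2 and 0.00112 for Foxq1). Mural and fibroblast marker sums were lower in mature adults too, as given above, and their part in these genes was not tested.

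Foxm1, the activator of mitotic genes, carried 1 peak in each of the 9 libraries. That peak, at chr6:128374864-128375676 near the gene end of upper coordinate, was 796, 724 and 732 bp wide in infants, 724, 683 and 655 bp in young adults and 568, 520 and 626 bp in mature adults. Mature adult widths were all below the other libraries (log2 -0.31 against infants after scaling, SE 0.0982, limma adjusted p = 0.0888, and log2 -0.40 as called, SE 0.1, limma adjusted p = 0.047). Scaled instead to the regions open in all libraries, the same peak differed by a log2 of -0.16 (SE 0.0945, limma adjusted p = 0.26). In that test the length as called passed (log2 -0.40, limma adjusted p = 0.0206). At the other end of Foxm1 lies chr6:128362069-128363318, whose centre falls to the neighbouring gene Rhno1. That region covered 894, 977 and 919 bp in mature adults and 1163, 1090 and 1123 bp in infants. The equal numbers made the share of peaks at Foxm1 higher in adults (log2 0.36 for mature adults, SE 0.0364, limma adjusted p = 0.000123), a difference that comes from the shorter adult lists alone.

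Foxn3, a repressor with a wide tissue distribution, ranked between 24 and 49 of all genes by peak number. It spans 374 kb at chr12:99190081-99563667 and had 59, 52 and 56 peaks in infants, 46, 48 and 40 in young adults and 39, 43 and 44 in mature adults. All infant libraries were above all adult ones, but the share of peaks was 6.52 to 6.97 per 10000 in mature adults and 5.78 to 6.3 in infants. The sign of the difference therefore depended on the scale: log2 -0.40 as called (SE 0.0851, limma adjusted p = 0.0146) and 0.14 as a share (SE 0.0679, limma adjusted p = 0.136). Its start region, chr12:99563291-99563987, covered 241, 486 and 654 bp in mature adults and 696, 673 and 647 bp in infants. The difference passed on neither scale (log2 -0.42 after scaling, SE 0.272, limma adjusted p = 0.292, and -0.66 as called, limma adjusted p = 0.161). The lower values came from mature adult replicates 1 and 2, and replicate 3 lay within the infant values.

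Single elements inside Foxn3 changed in opposite directions. At chr12:99343129-99343764, 220 kb from the start, infants had 210, 236 and 159 bp, young adults 617, 557 and 612 bp and mature adults 456, 576 and 544 bp. Every adult library was well above every infant one. The log2 difference was 1.63 for mature adults (SE 0.162, limma adjusted p = 0.00145) and 1.75 for young adults (SE 0.162, limma adjusted p = 0.00185) against infants, and it stayed past the threshold whichever library was left out. At chr12:99284179-99285581, 279 kb from the start, mature adults had 553, 756 and 761 bp and infants 1330, 1228 and 1122 bp, with young adults between them at 1096, 967 and 975 bp. This fall (log2 -0.60, SE 0.1, limma adjusted p = 0.00896) also held without each library in turn. Foxn3 held 1 of the 2 member regions open in all adult and no infant library, chr12:99456047-99456571, 107 kb into the gene, with 519, 392 and 373 bp in young adults and 415, 498 and 486 bp in mature adults. Open in infants alone were 7 of its 69 regions, the widest by mean bases covered in infants being chr12:99257612-99258284 with 672, 604 and 493 bp and chr12:99614162-99614637, 50.7 kb before the start, with 469, 423 and 414 bp.

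**Figure D3:**
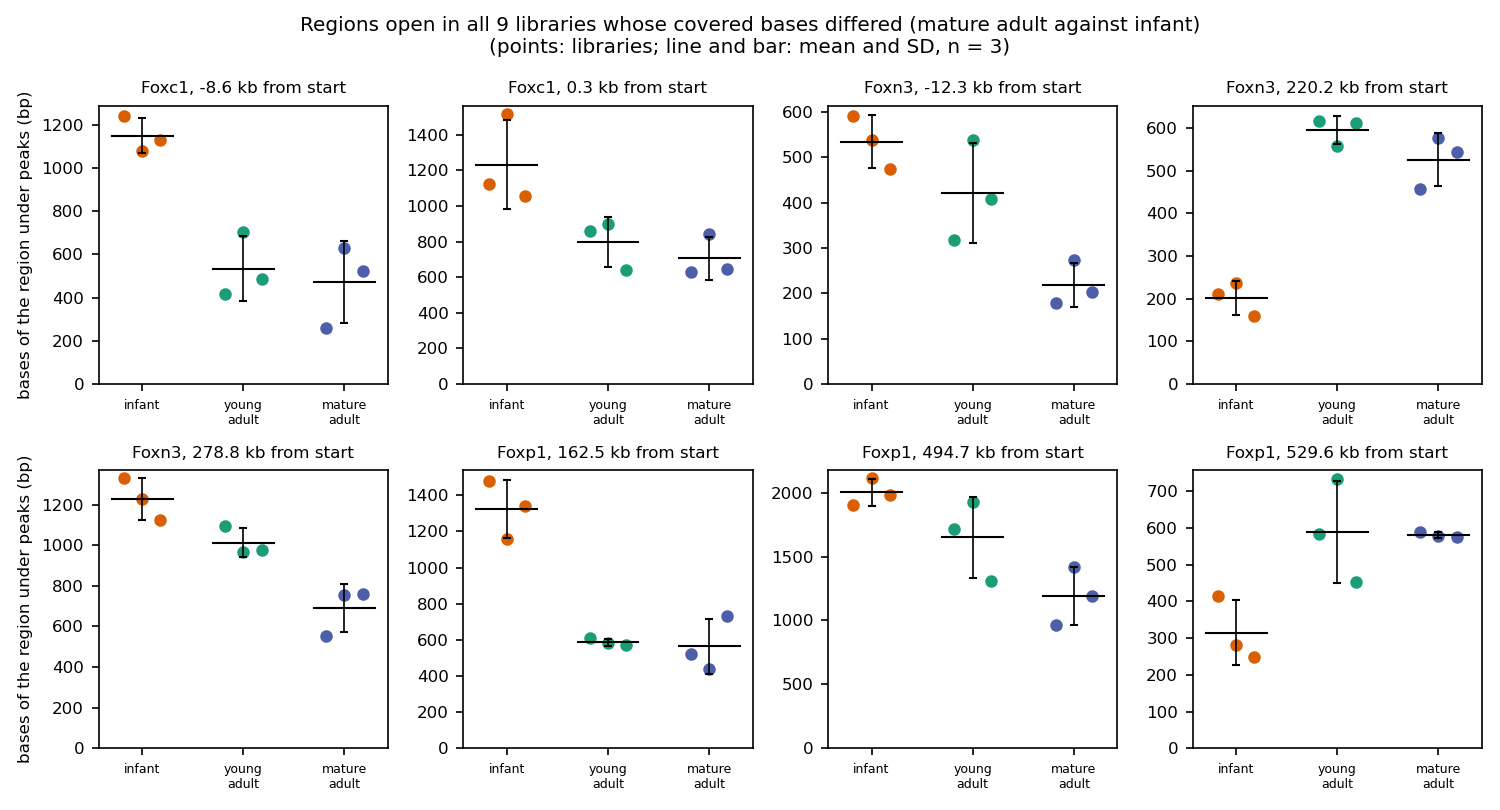
Bases under peaks, in bp per library, at the 8 member regions open in all 9 libraries whose width differed between mature adult and infant libraries on both scales, with 1 point per library and the mean and SD of 3 libraries per age. The Foxn3 region 220.2 kb and the Foxp1 region 529.6 kb from the start are wider in adults, and the other 6 are narrower in mature adults than in infants.

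Taken over the members, 88 regions open in all 9 libraries could be tested for width. Between mature adult and infant libraries 2 widened and 6 narrowed on both scales, where 1.92% and 7.21% of the 41144 regions tested did so, shares close to those of the members. Between young adult and infant libraries 1 widened and 3 narrowed, against 1.12% and 2.36%. On lengths as called 15 member regions were narrower in mature adults than in infants, against 16.4% of all tested. On shares alone 9 were wider in mature adults and 4 in young adults, against 10.3% and 2.73%. No member region was called between mature and young adult libraries, where 0.00729% widened and 0.0559% narrowed. The median scaled log2 difference for mature adult against infant libraries was 0.05 over the 88 member regions and 0.05 over all tested.

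**Figure D4:**
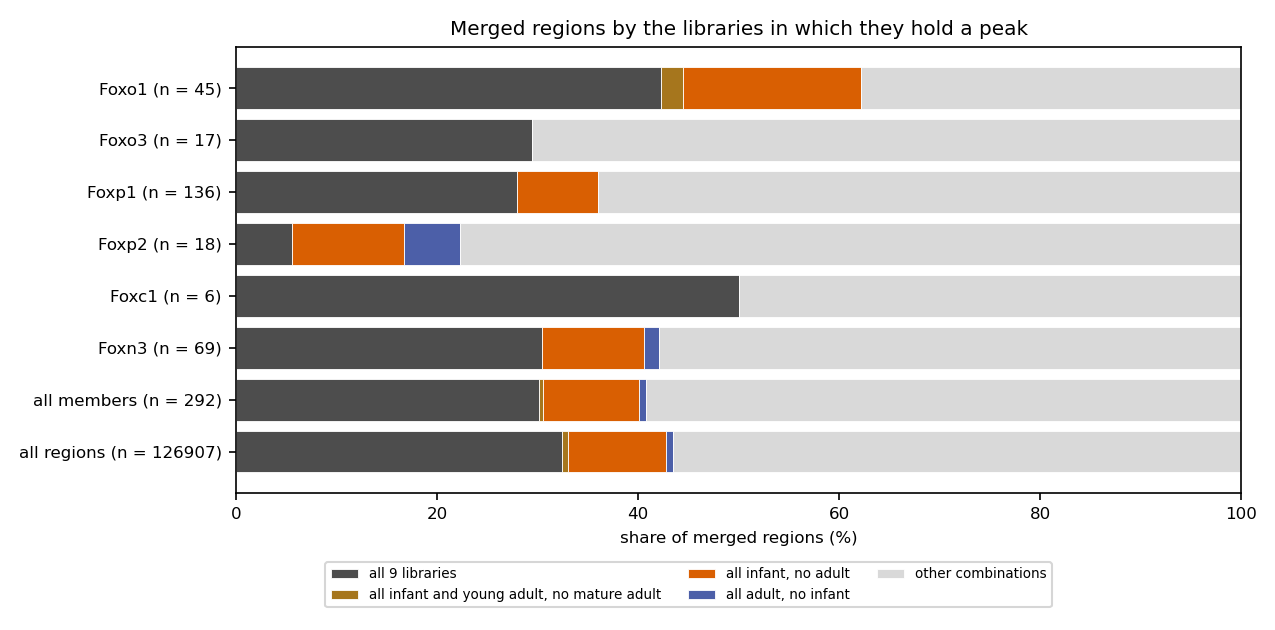
Share of merged regions, in percent, by the combination of libraries in which they hold a peak, for 6 of the genes (Foxm1 has a single region), for all member regions and for all regions of the series. Regions of infants alone make up 17.8% at Foxo1, 9.59% over all members and 9.7% over the series.

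The members' regions were spread over the classes much like those of the series. All 9 libraries held 88 of the 292, or 30.1%, against 32.4% of all 126907 regions. In all infant and no adult library were 28, or 9.59%, against 9.7%, and in all adult and no infant library 2, or 0.685%, against 0.686%. A single region, 0.342%, was open in all infant and young adult libraries and no mature adult one, against 0.602%. Where the regions lay did differ from the series: 7, or 2.4%, had their centre within 1 kb of a gene end, against 13.5% of the 111778 regions assigned to a gene, and 224, or 76.7%, lay inside a gene, against 64.7%. Most of those inside a gene belong to Foxp1 and Foxn3, both long genes.

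Of 20 genes of insulin, PI3K and AKT signalling and FoxO regulation, 1 rose and 2 fell in peak number on both scales for mature adult against infant libraries, where 1.43% of all genes rose and 13.9% fell. Irs1, an adaptor of the insulin receptor, rose in number, with 12, 14 and 12 peaks in mature adults and 10, 10 and 11 in infants (limma adjusted p = 0.00022 as a share and 0.044 as called). Its covered DNA did not, at 7446, 7902 and 7862 bp in mature adults and 8132, 7554 and 8013 bp in infants. Irs2, the related adaptor, fell, with 6, 7 and 6 peaks in mature adults and 15, 16 and 18 in infants (limma adjusted p = 0.0011 and 0.00035). Stk3, a kinase that phosphorylates FoxO factors, fell as well, with 6, 7 and 7 peaks against 16, 16 and 17 (limma adjusted p = 0.00195 and 0.00059). In young adults the same 3 genes were called in the same directions, with 13, 12 and 14 peaks at Irs1, 8, 9 and 7 at Irs2 and 6, 6 and 8 at Stk3. Those comparisons share the infant libraries. By covered DNA, 0 of the 20 genes rose and 3 fell (Irs2, Stk3 and Igf1r) for mature adult against infant libraries. Of all genes 1.19% rose and 19.1% fell there.

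Of 22 known FoxO target genes, 4 fell and none rose for mature adult against infant libraries, a share near the 13.9% of all genes that fell. Spry2, an inhibitor of growth factor signalling, had 4, 5 and 6 peaks in mature adults and 17, 16 and 18 in infants. Bcl2l11, which encodes the pro-apoptotic protein Bim, had 5, 9 and 7 against 18, 17 and 18. Mxi1, an antagonist of Myc, had 4, 5 and 5 against 10, 9 and 11, and Gadd45a, a stress response gene, 7, 9 and 6 against 16, 14 and 13. Mxi1 also fell between mature and young adult libraries, where young adults had 9, 9 and 8 peaks. The list's median log2 difference was 0.26 as a share and -0.25 as called, against 0.14 and -0.31 over all genes. Of 14 tested FoxM1 targets and partners out of 15 listed, 3 fell and none rose, again beside 13.9% of all genes: Cenpf, a kinetochore protein, with 2, 3 and 2 peaks in mature adults and 8, 7 and 7 in infants, the mitotic kinase Cdk1 with 3, 3 and 2 against 7, 9 and 6, and Mybl2 with 1 against 3 in every library. Among 7 tested FoxP partners out of 8, the sole call was Foxp4, with 4, 4 and 5 peaks in mature adults and 11, 12 and 10 in infants.

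Across the rest of the forkhead family no gene rose. Few genes did anywhere: for mature adult against infant libraries 1.43% of all genes rose in number and 1.19% in covered DNA. At such shares a list of 28 tested genes need hold none. Of 37 other forkhead genes, 28 had enough peaks to be tested, and 10 fell in peak number and 16 in covered DNA for mature adult against infant libraries, where 13.9% and 19.1% of all genes did. For young adult against infant libraries 3 fell in number and 8 in covered DNA, against 9.24% and 12.4% of all genes. Between mature and young adults 0 fell in number and 1, Foxa1, in covered DNA, against 0.662% and 0.524%. The largest differences in number, beside Foxq1 and Foxf2, were at Foxd3, with no peak in mature adults and 4, 4 and 3 in infants, and at Foxb2, with none and 3, 2 and 2. The median log2 difference in share was -0.34 over the 28 genes and 0.14 over all genes. Foxf1, a mesenchymal and endothelial forkhead factor of the lung, had 12, 16 and 13 peaks in mature adults and 20, 16 and 13 in infants, and was not called.

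Genes with a pattern like that of Foxp2 were ranked by Pearson correlation of log2(peak number + 0.5) over the 9 libraries among 3804 genes with a mean of at least 5 peaks. The closest were Septin6, a cytoskeletal GTPase (r = 0.973), Cacna2d1, a calcium channel subunit (r = 0.954), and Slc20a2, a phosphate transporter (r = 0.953). These 9 points share the length of their lists, which fell with age.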

How the data were processed

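The 9 libraries were available as deposited ATAC-seq peak lists, whose columns, per the file headers, are chromosome, start and end. Per the submitters' processing notes cutadapt, Bowtie2, Picard and build mm10 were used, and the peak caller is not given in the sources used here. Whether starts count from 0 or 1 is not stated, so positions may be off by 1 bp. Repeated intervals, 31.5% to 39.5% of rows, were counted once, and a width is end minus start. Genes were the protein-coding entries of RefSeq GRCm38.p6. Number per gene (log2(number + 0.5), genes with a mean of at least 1), covered bases (log2(bases + 150)), mean width and bases of regions open in all libraries were fitted over all 9 libraries with limma 3.58.1 (R 4.3.3, mean-variance trend) and adjusted by Benjamini-Hochberg over all genes or regions. Fold changes on these scales understate low values. The test was also run on simulated data. Scaled and unscaled fits both had to pass at 0.05. Peak counting, figures and the rest used Python 3.11.15, numpy 2.4.6, pandas 2.3.3 and matplotlib 3.10.9.

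The members and gene lists were chosen with earlier results of these data known. Regions named in the text are those nearest each start, up to 2 widest regions per gene open in infants or in adults only, and up to 2 called shared regions of smallest p per gene. The Foxp1 internal start region, the Foxo1 region absent from mature adults, and the Foxp1, Foxp2 and Foxc1 regions given for comparison, and the genes Foxf1 and Rhno1, were added after their values were seen. Lists name at most 4 genes with the largest called differences. Same-numbered libraries did not vary together (correlations of -0.171 to 0.169), so no pairing was used. Alternatives covered scaling, repeated rows, equal list lengths, added constants, filters, distance limits, a replicate block and leaving out libraries.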

Additional observations from a re-analysis of the deposited data

How the results depend on the processing

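Depth is unknown, so a missing peak does not show closed chromatin. The fall of Foxp2 in covered DNA held under every alternative run. Without scaling, 3 members were lower in number in young adults and 4 in mature adults than in infants, 5 and 6 in covered DNA, 2 in mean width, and 15 regions were narrower in mature adults. Signs turned without scaling, with a call as called, for Foxn3 peak number (log2 -0.32 for young and -0.40 for mature adults), Foxp1 number (-0.54, mature adults), Foxo1 and Foxn3 covered DNA (-0.49 and -0.41, young adults) and Foxm1 covered DNA (-0.32, mature adults). With no call on either scale they also turned for Foxc1 number (-0.10 young, -0.20 mature adults), Foxm1 covered DNA (young adults) and, mature against young adults, Foxp1, Foxc1 and Foxn3 number and Foxp1 covered DNA. On shares alone, a rule chosen after seeing the data, 2 and 1 members were higher in number in young and mature adults, 1 and 1 in covered DNA, and 4 and 9 regions wider. With rows as deposited 1 member, Foxp2, was lower in number in mature adults (limma adjusted p = 0.00772 as a share). With list lengths made equal (the widest peaks kept), covered DNA was lower at 1 member in young and 2 in mature adults (Foxp2 and Foxc1). In that setting 8 member regions were open in infants only and 9 in adults only. Over all its 97261 regions those classes held 5.0% and 3.05%. Merging the shorter lists gives other regions, and how many belong to the members was not counted, so the shares cannot be compared. With 50% of a region required, 53 were open in all 9 libraries (21.7% of all regions). When young adult replicate 3 was left out together with mature adult replicate 1, 4 member regions were open in adults only, against 1.01% of all regions. Leaving out each library in turn gave 0 to 1 members lower in number in mature adults (Foxo1 without young adult replicate 3, Foxp2 without mature adult replicate 1) and 1 to 2 lower in covered DNA (Foxc1 added without mature adult replicate 2). It gave 1 to 2 wider and 0 to 4 narrower regions in young adults, 1 to 2 wider and 2 to 7 narrower in mature adults, 88 to 93 regions open in all libraries, 28 to 37 in infants only and 2 to 3 in adults only. Other counts of members stayed at 0. With the replicate number as a block, 1 member (lower) was called for mean width in mature adults against infants and 1 region (narrower) in young adults, and the other counts of calls were the same. The causes of these shifts were not tested.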

Other observations

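Outside the rule on like patterns, and chosen after its values were seen, the peak number of Foxo1 followed that of Irs2 most closely of 3804 genes (Pearson r = 0.996 over 9 libraries, which share list lengths that fell with age). Irs2, an adaptor of insulin signalling, had 15, 16 and 18 peaks in infants, 8, 9 and 7 in young adults and 6, 7 and 6 in mature adults, a wider spread than at Foxo1. The same measure put Myo18a closest to Foxp1 (r = 0.995), with 24, 23 and 23 peaks in infants and 17, 19 and 19 in mature adults.

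Foxn3 also held a region before its start, chr12:99575675-99576283, with 179, 273 and 204 bp in mature adults and 591, 538 and 474 bp in infants (log2 -1.07, SE 0.211, limma adjusted p = 0.0159), called in 6 of the 9 fits that left out 1 library. In young adults against infants a Foxp1 region, chr6:99188541-99189241, was narrower, with 198, 281 and 150 bp against 502, 421 and 538 bp (limma adjusted p = 0.0202). That call was lost without infant replicate 1 or 3, without young adult replicate 1 and with the replicate number as a block.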
